A study of Mus musculus with 24 samples.

Results

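Sox9 and the gene desert around it were examined on mouse chromosome 11, from 111.00 to 113.30 Mb (mm9), in all 10 peak lists of the series. The members were chosen by position alone: every peak touching this 2.3 Mb window, which gave 169 of the 175212 peaks in the 10 lists. Sox9 was taken at 112.64 Mb, a position given to 10 kb, and distances below run from there to the middle of a site. Upstream means lower coordinates, since Sox9 is transcribed toward higher ones. The gene zone ran from 10 kb before to 20 kb after that position. The upstream zone was the 1630 kb before it, and the downstream zone the 640 kb after it.

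The libraries came from whole forelimb or hindlimb buds of C57BL/6J mouse embryos. The labels name no treatment of the animals and no genetic change. At embryonic day 10.5 (E10.5) each limb had 2 libraries for acetylation of histone H3 lysine 27 (H3K27ac) and 2 for its trimethylation (H3K27me3). At E11.5 each limb had 1 H3K27ac library. The antibody lot for H3K27ac differed between the stages, the H3K27ac libraries were paired-end and the H3K27me3 libraries single-end, so stage and lot, and mark and run type, cannot be told apart. Nothing in the labels ties the replicates to separate litters or animals. A library pools all cells of the buds, so a mark in fewer cells and a weaker mark per cell cannot be told apart, and both marks at a locus can come from different cells.

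Sox9 encodes a transcription factor with an HMG-box DNA-binding domain. In the limb bud it is needed for mesenchymal cells to condense and become cartilage, where it works with Sox5 and Sox6 on genes such as Col2a1 and Acan. It also acts in testis, neural crest and other tissues. The gene lies in a very large desert with few protein-coding genes, and distant enhancers on both sides drive it tissue by tissue. In humans, chromosome breaks and deletions in this desert cause skeletal disorders, among them campomelic dysplasia and Pierre Robin sequence. H3K27ac marks active promoters and enhancers, and H3K27me3 is deposited by Polycomb repressive complex 2. In the GRCm38.p6 gene table, the next protein-coding entries before Sox9 are Gm11677 and then the potassium channel gene Kcnj2, and the next after it is the zinc transporter gene Slc39a11. The table is of another build than the lists, so no site below is assigned to an exon, intron or neighbouring gene.

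At Tbx5, the forelimb T-box gene, a window of 200 kb held 17.1 to 33.8 kb of H3K27ac in the 3 forelimb lists and 0 kb in the 3 hindlimb lists. At Pitx1, a hindlimb gene, a window of 50 kb held 0 kb in the forelimb lists and 13.4 to 16.0 kb in the hindlimb lists. Both windows were placed from general knowledge of mm9 and served as a check of the limb labels, which all 6 H3K27ac lists passed. The lists carry no read numbers, so depth is unknown. With 2 libraries against 2, no two-sided exact permutation p below 0.333 can be had, and E11.5 has no replicate. Differences between limbs and stages are therefore described and not tested.

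At E10.5 the Sox9 window held few and weak H3K27ac peaks. The forelimb libraries had 12 and 5 peaks, and the hindlimb libraries 14 and 11. The covered bases in forelimb replicates 1 and 2 were 6.16 and 1.75 kb (mean 3.96 ± 3.12, SD, n = 2). In the hindlimb replicates they were 5.16 and 3.95 kb (mean 4.55 ± 0.858, SD, n = 2). The hindlimb libraries lay within the range of the forelimb libraries for covered bases. These peaks made up 0.0368% to 0.0816% of their lists, while the window is 0.0871% of the genome length spanned by the lists. Peaks were 248 to 794 bp wide. The authors' peak scores, which are minus 10 times the log10 of the p-value and where 50 is the lowest value that passed their threshold, ran from 50.24 to 151.91. Ranked within their own lists, the 42 peaks had a median percentile of 41.2, and the highest stood at 68.2.

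The 42 peaks merged into 33 E10.5 sites, with 14 upstream, 2 in the gene zone and 17 downstream. Of these, 25 were found in 1 library, 7 in 2, 1 in 3 and 0 in all 4. Over the genome, 53.4% of E10.5 H3K27ac sites were found in 1 library and 19.7% in all 4, against 75.8% and 0% here. The downstream zone had 26.6 E10.5 sites per Mb and the upstream zone 8.59, against 11.3 per Mb in the genome. Of the 8 sites found in at least 2 libraries, 5 were downstream, 1 was in the gene zone and 2 were upstream. That count was 3 without forelimb replicate 1 and 3 without hindlimb replicate 2, and without hindlimb replicate 1 the window held 9 upstream and 11 downstream sites.

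**Figure D1:**
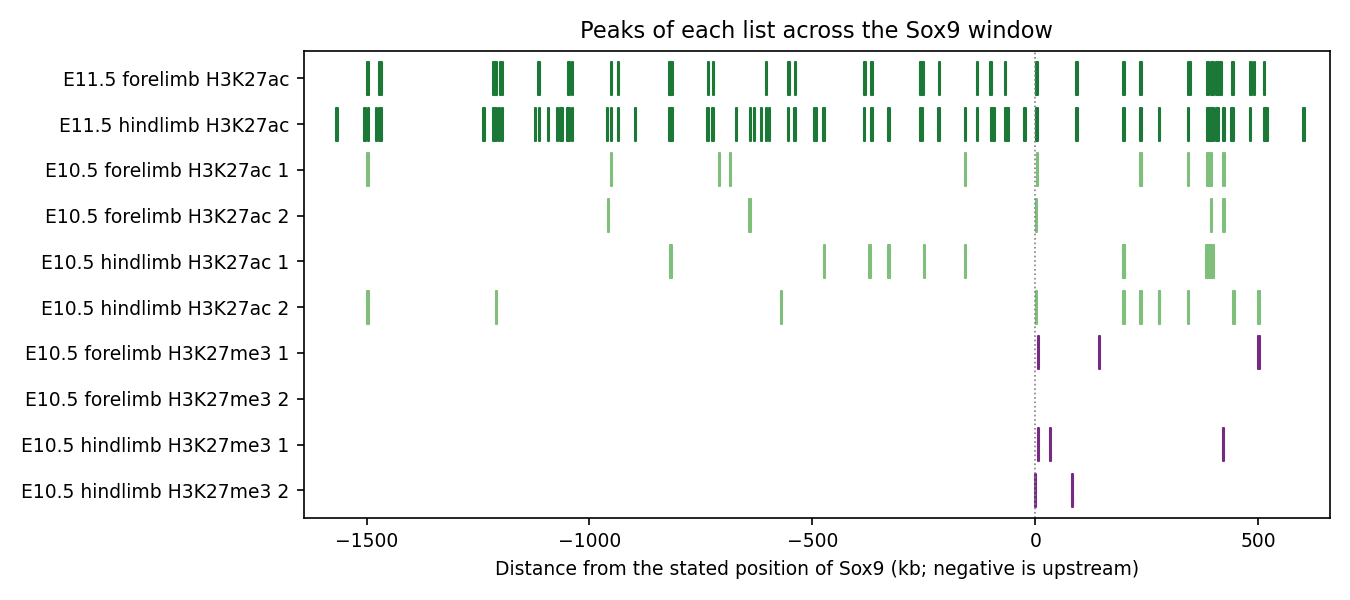
Peaks of the 10 lists across the Sox9 window, 1 row per list, by distance in kb from the stated position of Sox9 (dotted line), with E11.5 H3K27ac in dark green, E10.5 H3K27ac in light green, E10.5 H3K27me3 in purple and peaks under 3 kb drawn 3 kb wide. The E11.5 rows hold 45 and 74 peaks, the E10.5 H3K27ac rows 5 to 14 and the H3K27me3 rows 0 to 3.

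At Sox9 itself, H3K27ac was patchy at E10.5. Forelimb replicate 2 and hindlimb replicate 2 shared a site at 112642213 to 112642834, covering 322 and 622 bp of it, with scores of 55.64 and 100.66. Forelimb replicate 1 instead had a peak at 112643823 to 112644420, with a score of 88.68. Hindlimb replicate 1 had no H3K27ac peak in the gene zone. So 3 of the 4 libraries had acetylation here, not all at one place, and the limbs overlapped.

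H3K27me3 at Sox9 was as thin. A site at 112645725 to 112646750 was covered over 1026 bp in hindlimb replicate 1, with a score of 86.27, and over 406 bp in forelimb replicate 1, with a score of 53.93. Hindlimb replicate 2 had a 299 bp peak at 112640601 to 112640899, and forelimb replicate 2 had none. Mean coverage of the gene zone by the mark was 0.203 ± 0.287 kb in the forelimb libraries (SD, n = 2). The hindlimb libraries averaged 0.662 ± 0.514 kb (SD, n = 2), and the limbs overlapped. By comparison, the hindlimb H3K27me3 libraries covered 34.1 and 34.7 kb of the Tbx5 window in total, so these libraries held much more of the mark elsewhere.

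At E11.5 a single acetylated interval lay at the gene in each limb. It spanned 112642240 to 112645051 in forelimb (2812 bp) and 112642145 to 112646836 in hindlimb (4692 bp). Both E10.5 H3K27ac sites of the gene zone lay inside the hindlimb interval, and the forelimb interval touched both. The hindlimb interval also contained the whole E10.5 H3K27me3 site of 1026 bp, while the forelimb interval ended 673 bp before it. Measured from the edges of the merged gene site to the nearest edge of the next E11.5 site, the gap was 25.4 kb upstream and 84.3 kb downstream.

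**Figure D2:**
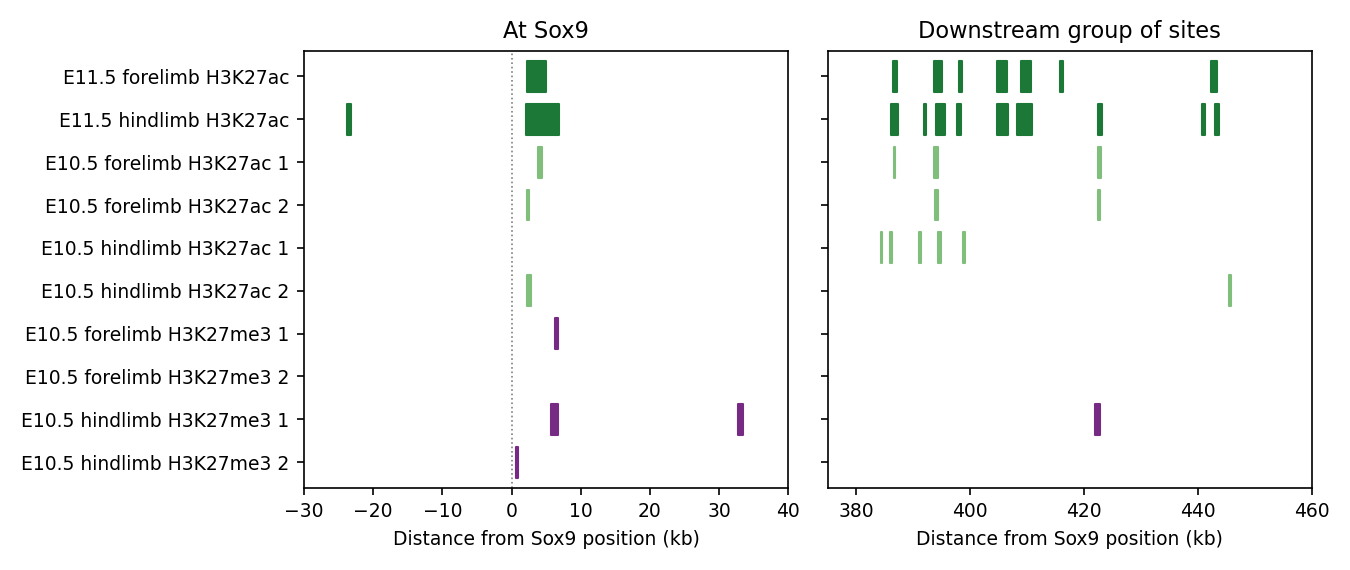
Peaks to scale near Sox9 (left, distance in kb from its stated position) and in the downstream group of sites (right), 1 row per list, with E11.5 H3K27ac in dark green, E10.5 H3K27ac in light green and H3K27me3 in purple. At the gene the E11.5 intervals of 2812 and 4692 bp overlap the shorter E10.5 H3K27ac peaks, and the hindlimb interval also spans the 1026 bp H3K27me3 peak.

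Over the whole window at E11.5, the forelimb list had 45 H3K27ac intervals covering 53.0 kb, and the hindlimb list had 74 covering 102 kb. These were 0.194% and 0.227% of the lists, against at most 0.0816% in any E10.5 H3K27ac list. The window held 23.1 and 44.3 kb of acetylated bases per Mb, compared with 11.9 and 17.9 kb per Mb over the genome in the same lists. In the E10.5 lists the order was the opposite, with 0.760 to 2.68 kb per Mb in the window and 2.89 to 5.56 kb per Mb in the genome. Neighbouring E11.5 intervals were at least 1001 bp apart and appear to have been joined across shorter gaps, so numbers and covered bases of the stages are set side by side and not subtracted.

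The 2 E11.5 lists merged into 80 sites, of which 55 were upstream, 1 at the gene and 24 downstream. Per Mb there were 33.7 E11.5 sites in the longer upstream zone and 37.5 downstream, against 14 in the genome. No E10.5 H3K27ac peak of any of the 4 libraries touched 66 of the 80 sites, or 82.5% (95% Wilson interval 72.7 to 89.3%, counting error only). The interval treats neighbouring sites as independent and holds no spread between libraries, so it is no test against the genome. Over the genome 61.0% of 36927 E11.5 sites had no E10.5 peak. Of the 66 sites found at E11.5 only, 49 were upstream and 17 downstream. They made up 89.1% of upstream sites and 70.8% of downstream sites. Of the 66, 28 were in both limbs' lists (42.4%, genome 25.3%), 32 in the hindlimb list alone and 6 in the forelimb list alone.

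The sites common to both E11.5 lists stood farther from the genome value than the full set. There were 38 such sites in the window (47.5% of its sites, genome 48.7%), and 28 of them (73.7%) had no E10.5 peak, against 31.7% of 17993 in the genome. Within the forelimb, 38 of 45 E11.5 intervals had no peak in either E10.5 forelimb library (84.4%, genome 51.9%). Within the hindlimb the count was 62 of 74 (83.8%, genome 63.9%). The part of depth and antibody lot in these shares was not tested.

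**Figure D3:**
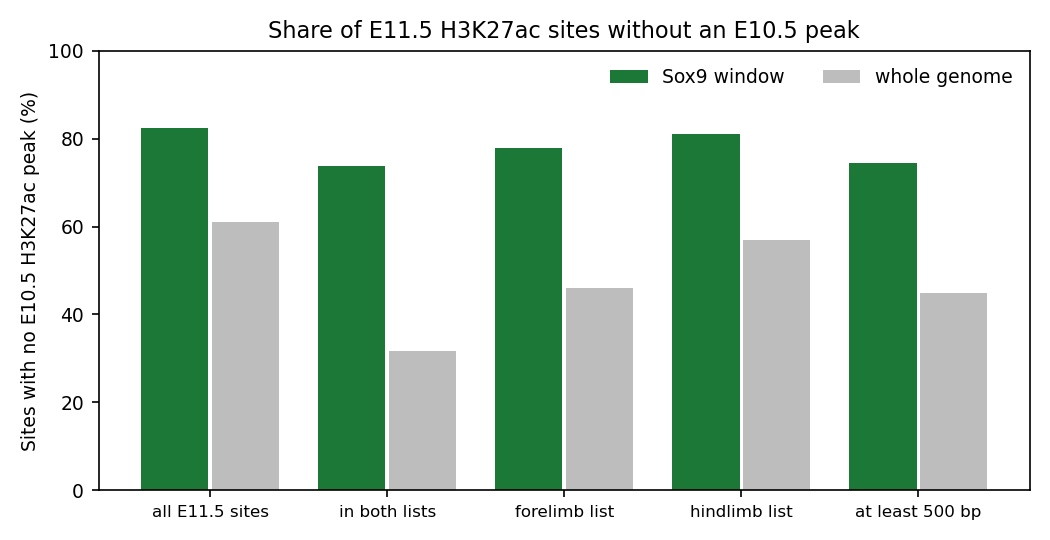
Percent of E11.5 H3K27ac sites with no peak in any E10.5 H3K27ac library, in the Sox9 window (green) and over the genome (grey), for all sites, sites in both lists, all intervals of each list and intervals of at least 500 bp. The window stands at 73.7% to 82.5% and the genome at 31.7% to 61.0%.

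The sites found at E11.5 only in both limbs were spread over the window, from 1471 kb upstream to 513 kb downstream. The widest was at 112271163 to 112276614, 366 kb upstream, and covered 3170 bp in forelimb and 5452 bp in hindlimb. Its width was above 99.5% of all sites of the genome found at E11.5 only. In the hindlimb list the interval was as long as any other in the window but 1. A 294 bp E10.5 peak of hindlimb replicate 1 lay 2166 bp before it without touching it.

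Among the 12 widest of these 28 sites, 7 covered at least 1607 bp in both limbs. Beside the site 366 kb upstream, they lay at 111172843 to 111174554 (1466 kb upstream), 111423081 to 111425339 (1216 kb upstream), 111601050 to 111603345 (1038 kb upstream), 111904680 to 111907198 (734 kb upstream), 113044647 to 113046693 (406 kb downstream) and 113048256 to 113050915 (410 kb downstream). At the first, the limbs covered 1610 and 1607 bp (forelimb, then hindlimb), and at the second 2175 and 2218 bp. At 1038 kb upstream they covered 1756 and 1724 bp, and at 406 kb downstream 1919 and 1977 bp, so these 4 sites were nearly as long in either limb. At 734 kb upstream and 410 kb downstream the hindlimb interval was the longer, with 2519 against 1944 bp and 2660 against 1819 bp.

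Others of the 12 were unequal. At 112509804 to 112511509, 129 kb upstream, the forelimb interval was 299 bp and the hindlimb interval 1706 bp. The reverse held at 112733760 to 112735274, 95 kb downstream, with 1515 bp in forelimb and 545 bp in hindlimb. The remaining 3 lay 1201, 1046 and 934 kb upstream, with 1029 to 1440 bp in forelimb and 1522 to 2191 bp in hindlimb.

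Joined across gaps of up to 50 kb, a distance chosen after the lists were seen, the 80 sites formed 15 groups. The farthest group upstream with sites in both limbs ran from 1505 to 1465 kb and held 6 sites. Its widest site was an interval at 111142197 to 111146657, 1496 kb upstream, that covered 4155 bp in forelimb and 4328 bp in hindlimb. This interval already had E10.5 peaks: forelimb replicate 1 and hindlimb replicate 2 had peaks of 304 and 470 bp inside it, with scores of 64.42 and 74.1. The 5 other sites of the group had no E10.5 peak. The farthest site upstream, 1566 kb from the gene at 111074028 to 111074283, was 256 bp long and in the hindlimb list alone, as was the farthest downstream, 401 bp at 113242334 to 113242734 (602.5 kb). Between the group and the next one lay the widest stretch of the window without an E11.5 site, 227.7 kb.

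The next group, from 1238 to 1194 kb upstream, held 5 sites, of which 4 were in both limbs and 4 had no E10.5 peak. The one after it, from 1122 to 1037 kb upstream, held 10 sites, all without an E10.5 peak. Of these, 7 were in the hindlimb list alone, 1 in the forelimb list alone and 2 in both. Its acetylated bases summed to 3.10 kb in the forelimb list and 9.92 kb in the hindlimb list. From 671 to 474 kb upstream lay a further 11 sites without any E10.5 peak, 8 of them in the hindlimb list alone. There the forelimb list covered 1.39 kb and the hindlimb list 7.76 kb.

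At 816 kb upstream the hindlimb list held the window's widest interval, 111821227 to 111826751 (5525 bp), within which the forelimb list had 2 intervals of 935 and 606 bp. Hindlimb replicate 1 had a 404 bp peak there at E10.5. Of the 8 E11.5 sites in the last group, which ran from 158 kb upstream to the gene and included its site, 4 were in the hindlimb list alone. Among these, the widest, at 112577543 to 112579906, 61.3 kb upstream, spanned 2364 bp.

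**Figure D4:**
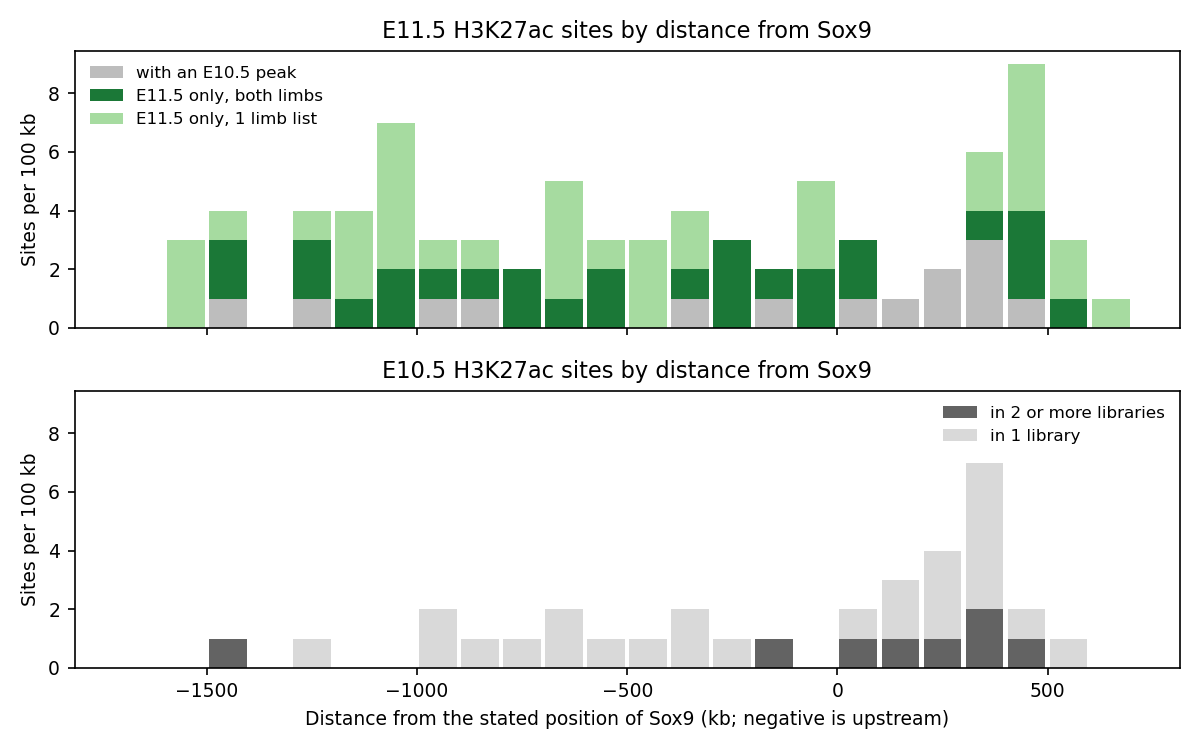
Number of H3K27ac sites per 100 kb of distance from Sox9 at E11.5 (top, split by presence of an E10.5 peak and by number of limb lists) and at E10.5 (bottom, split by number of libraries). The E10.5 sites peak at 300 to 400 kb downstream with 7. Of the E11.5 sites, 49 of 55 upstream and 17 of 24 downstream had no E10.5 peak, and some upstream bins held no E11.5 site.

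Downstream of Sox9, a larger share of the E11.5 sites had a peak at E10.5 than upstream. Of 24 sites, 7 had an E10.5 peak, against 6 of 55 upstream. The group from 198 to 279 kb downstream held 3 sites and all had one. At 112874920 to 112879137, 237 kb downstream, the E11.5 intervals covered 4144 and 4183 bp in forelimb and hindlimb, and the site had E10.5 peaks in forelimb replicate 1 and hindlimb replicate 2. At 112981229 to 112983880, 343 kb downstream, the E11.5 lists covered 2581 and 2652 bp, with E10.5 peaks in the same 2 libraries. These long downstream intervals were nearly the same length in both limbs.

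The group with the most sites lay from 341 to 520 kb downstream, with 18 E11.5 sites, 14 of them without an E10.5 peak. It contained the E10.5 site found in the most libraries, at 113033703 to 113034831, 394 kb downstream. That site covered 730 and 552 bp in the forelimb libraries and 540 and 0 bp in the hindlimb libraries. Its scores in forelimb, 151.91 and 110.15, were the highest of the window in each of those lists, and its score in hindlimb replicate 1 was 74.19. At E11.5 the interval there covered 1461 bp in forelimb and 1604 bp in hindlimb. The 2 intervals 406 and 410 kb downstream, both without an E10.5 peak, followed within 20 kb of it.

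One E10.5 H3K27ac site of the window was in both forelimb libraries and neither hindlimb library, and 1 was in both hindlimb libraries and neither forelimb library. Both are 1 of 33 sites, and over the genome 2.86% of sites were forelimb-only and 2.68% hindlimb-only, so the share here was near the background. Leaving out a library loosens this rule, so the counts could stay or rise but not fall, and nothing is read from their rise. Without forelimb replicates 1 and 2 in turn the forelimb-only count was 3 and 7, and without hindlimb replicate 1 it was 2. Without hindlimb replicates 1 and 2 in turn the hindlimb-only count was 7 and 12. The forelimb-only site, at 113062511 to 113063069, 423 kb downstream, covered 530 and 291 bp, with scores of 96.32 and 50.86. At E11.5 it was covered in the hindlimb list and not in the forelimb list. The hindlimb-only site, at 112838740 to 112839100, 199 kb downstream, covered 291 and 278 bp, and both limbs covered it at E11.5. Forelimb-only and hindlimb-only calls therefore met with acetylation in the other limb a day later at both sites.

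In bins of 20 kb, 0 bins of the window had covered bases that differed between the limbs by at least 1 kb without overlap, for either mark. Over the genome 0.0159% of bins were higher in forelimb and 0.0174% in hindlimb for H3K27ac, and 0.00833% and 0.472% for H3K27me3. Such a difference needs at least 1 kb in a bin in both replicates of a limb. Replicate 2 of either limb reached 1 kb in no bin of the window, for either mark. The count could therefore only be 0, and nothing is read from it.

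At E11.5 the limb lists differed more upstream of Sox9 than downstream. Upstream, the forelimb list covered 29.1 kb and the hindlimb list 71.7 kb, a ratio of 2.46. Downstream they covered 21.1 and 25.5 kb, a ratio of 1.21, and the genome ratio of these lists was 1.51. Interval numbers were 28 and 53 upstream and 16 and 20 downstream. Of 36 sites in the hindlimb list alone, 28 were upstream, and their median width over the window was 500.5 bp, against 1687 bp for the 38 sites of both lists. In the genome 39.3% of E11.5 sites were in the hindlimb list alone, compared with 45.0% here. The forelimb list alone gave 6 sites of 282 to 464 bp, or 7.50% (genome 11.9%). Among sites of both lists, 30 of 38 covered more bases in hindlimb (genome 78.1%). With 1 library per limb, these differences have no replicate check.

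**Figure D5:**
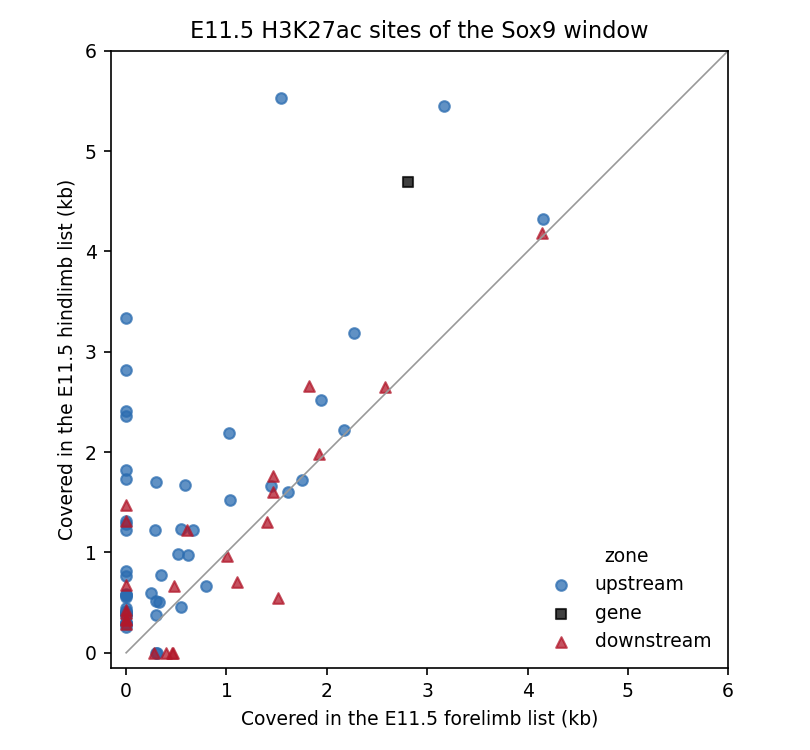
Bases covered by the E11.5 forelimb list (x axis, kb) and hindlimb list (y axis, kb) at each of the 80 E11.5 H3K27ac sites, by zone, with the line of equal coverage in grey. Of the 38 sites in both lists 30 lie above the line, and points on the y axis are the 36 sites of the hindlimb list alone.

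Not all E10.5 acetylation was found again. Of the 33 E10.5 sites, 19 were covered in an E11.5 list (57.6%), against 71.4% in the genome. The 95% Wilson interval, 40.8 to 72.8%, holds counting error only and treats neighbouring sites as independent. All 8 sites of at least 2 libraries were covered. The exact genome share of that class was not computed. Over the genome 21323 of 29871 sites were covered, among them 8813 of the 15962 sites of 1 library (55.2%). Most genome sites of at least 2 libraries were therefore covered too, at a share above the 71.4% of all sites. Nothing is read from the 8 sites. Of the 25 sites of 1 library, 11 were covered (genome 55.2%) and 14 were not, with 8 of the 14 upstream and 6 downstream. Some of the 14 lay just outside an E11.5 interval: 5 were within 1 kb of one, the closest at 33 bp (111682232 to 111682521, 958 kb upstream). The one farthest from an E11.5 interval, at 14.7 kb, lay at 112070604 to 112071135, with a score of 110.8 in hindlimb replicate 2.

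H3K27me3 was almost absent from the window. The forelimb libraries had 3 and 0 peaks and the hindlimb libraries 3 and 2, and covered bases were 1.04 and 0 kb against 2.55 and 0.614 kb. The limbs' libraries overlapped. Coverage was 0 to 1.11 kb per Mb, against 2.86 to 5.11 kb per Mb over the genome. All 8 peaks lay in the gene zone or downstream, and 0 lay in the 1630 kb upstream in any of the 4 libraries. They formed 7 sites, of which 1, that at Sox9, was in more than 1 library. Over the genome 49.5% of H3K27me3 sites were in 1 library and 27.7% in all 4. By the rule of both libraries of 1 limb and neither of the other, 0 were forelimb-only and 0 hindlimb-only (genome 1.09% and 8.52%). No site was in both libraries of a limb, so both counts could only be 0 and nothing is read from them. Leaving out a library loosens the rule. Without forelimb replicate 2 there were 2 forelimb-only sites, and without either hindlimb replicate 2 hindlimb-only sites.

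The 5 H3K27me3 sites downstream lay at 33.1, 83.6, 143, 422 and 501 kb. Their scores were between 54.06 and 110.64, and 1 of the 8 peaks ranked above the middle of its list. That peak, in hindlimb replicate 1 at 113061971 to 113062869, overlapped the forelimb-only H3K27ac site by 330 bp of the peak in forelimb replicate 1 and 291 bp of that in replicate 2. This was the only overlap of the 2 marks in the window at E10.5, and it joins different limbs and a single H3K27me3 library. At 501 kb downstream, an H3K27me3 peak of forelimb replicate 1 ended 75 bp before an H3K27ac peak of hindlimb replicate 2. No H3K27me3 site of the window was in both replicates of a limb, so the count of sites with both marks in both replicates could only be 0 in each limb, and nothing is read from it. Eligible H3K27ac sites, those in both replicates of a limb, numbered 2 in forelimb and 1 in hindlimb. Over the genome 1.42% of 8514 such forelimb sites and 3.20% of 9115 such hindlimb sites touched H3K27me3 of both replicates.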

How the data were processed

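Peak lists of 10 libraries were used. The other 14 samples, 10 inputs and 4 of mRNA, are not analysed here. The submitters' processing notes name mm9, Bowtie 0.12.3 and MACS 1.37. The E10.5 lists hold 1 library each and a p-value threshold of 1e-05, per the file headers. Their deposited score is the authors' own value per peak and was used within a list alone. No score comes with the E11.5 lists, and the sources used here give no threshold for them.

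Groups follow the sample titles, although the protocol text names day 10.5 for the E11.5 samples too. Coordinates are 1-based. Peaks were merged into sites at gap 0, and 1 bp of overlap counted as detection. E10.5 sites came from the 4 E10.5 lists of a mark and E11.5 sites from both E11.5 lists. Chromosome lengths were taken as the last peak end. Python 3.11.15, pandas 2.3.3 and statsmodels 0.14.6 were used. The merging and detection code was run on 2000 simulated sites whose planted peaks always overlapped, and 100% of those planted as late only were recovered. This checks the code alone and says nothing about the calls in these data. Alternatives were merge gap, overlap, distance, score, zone bounds, bin gap and leaving out libraries, and single E11.5 lists and a 500 bp minimum were added after seeing the data. Named sites were those at the gene, limb-only sites, H3K27me3 sites of 2 libraries, the 12 widest E11.5-only sites of both limbs and the farthest sites. A rule for sites in all 6 H3K27ac lists found 0 outside the gene zone. Other sites were named after their values were seen. The window, rules and lists were chosen with earlier results of these data known.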

Additional observations from a re-analysis of the deposited data

How the results depend on the processing

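Of 192 recomputed values, 164 stayed within 1.5 times the main count or 1 SD of the main value and 28 did not. Some of the 164 could not move, such as counts of 1 mark when a library of the other mark was left out. Bin counts of 0 at a wider bin gap could not move either. The 164 are therefore no measure of stability. The cause of the 28 changes was not tested. With the top 50% of each E10.5 list by score, the window held 12 E10.5 H3K27ac sites (6 upstream, 1 at the gene, 5 downstream), of which 1 was in at least 2 libraries and 0 were hindlimb-only, and hindlimb coverage was 1.69 kb. A merge gap of 1 kb gave 1 site at the gene. Sites found at E11.5 only numbered 37 for forelimb sites against the forelimb libraries, 28 in both lists and 41 at 500 bp or more (8 downstream). With the forelimb list as the only E11.5 list they numbered 35 (24 upstream, 11 downstream), which includes sites also in the hindlimb list. Leaving out 1 library gave 22 to 31 E10.5 H3K27ac sites (9 to 12 upstream, 1 to 2 at the gene, 11 to 17 downstream), with 3 to 6 in at least 2 libraries. It gave 1 to 7 forelimb-only and 1 to 12 hindlimb-only H3K27ac sites, and 0 to 2 of either kind for H3K27me3. These limb-only counts could not fall, because the rule is looser with fewer libraries. The 3 sites in at least 2 libraries came without forelimb replicate 1 and without hindlimb replicate 2, the 7 forelimb-only without forelimb replicate 2 and the 12 hindlimb-only without hindlimb replicate 2. Sites found at E11.5 only numbered 66 to 68, a count that could stay or rise with fewer E10.5 libraries but not fall. No paired analysis was possible because these results come from no test.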
